A study of Mus musculus with 2 samples.

Results

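Hepatocyte nuclei that carried transcripts of the DNA replication machinery, called replication-positive nuclei in what follows, were taken from single-nucleus RNA profiles of regenerating mouse liver. A nucleus was a member when it had at least 4 unique molecular identifiers (UMIs, counted transcript molecules) from at least 3 of 15 replication genes. The 15 genes were Mcm3, Mcm4, Mcm5, Mcm6, Mcm7, Mcm10, Pola1, Pole, Dtl, Clspn, Brip1, Rfc3, Atad2, Rrm1 and Uhrf1. A member also had at least 2000 UMIs, under 10% mitochondrial UMIs and at most 1 UMI summed over 9 genes of other liver cells (Stab2, Ptprb, Adgre1, Timd4, Reln, Ntm, Skap1, Pax5 and Flt3). It had at most 1 UMI summed over 9 genes of G2 phase and mitosis (Top2a, Mki67, Ect2, Diaph3, Aspm, Kif11, Cenpe, Hmmr and Casc5). The rule kept 1229 of 29613 barcodes, 417 of 14912 in the HKO library and 812 of 14701 in the WT library.

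The study compared livers of C57BL/6 mice, 12 weeks old, taken at 48 h of regrowth following PHx, which is partial hepatectomy, an operation that cuts away liver lobes and leaves the remainder to regrow. Sox9f/f mice, whose Sox9 gene carries loxP sites, gave the library titled WT, and Sox9HKO mice gave the library titled HKO. Both groups had the surgery, and there was no liver without it. The labels do not spell out HKO, do not name the promoter of a recombinase and do not say how many animals went into a library. As each group is 1 library, nothing below could be checked against replicates, and no test was run. Intervals in parentheses are 95% intervals for counting error only, and UMIs of a sum were treated as independent molecules.

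In background terms, a cell licenses its origins of replication in G1 phase by loading the Mcm2 to Mcm7 ring helicase. Firing factors such as Cdc45 and the GINS complex then activate the helicase, and DNA polymerases, the clamp and the clamp loader copy the strands. E2F transcription factors drive many of these genes at the G1 to S transition, whereas many mitosis genes are switched on later through CHR and CCAAT promoter elements. Hepatocytes are quiescent in the adult liver and enter the cycle in a wave after hepatectomy.

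Before any result, the libraries were set side by side. The HKO and WT libraries held 61123904 and 64609301 UMIs. They shared 70 barcode sequences, of which 0 belonged to a member in both libraries. Members held 2387740 UMIs in HKO and 4201348 in WT, with medians of 4904 and 4533.5 UMIs per nucleus, against medians of 4005 and 3066.5 in reference nuclei. Reference nuclei were the 5947 HKO and 6008 WT nuclei of the same gate, with at most 1 UMI of the G2 and mitosis genes, that failed the 15-gene rule. Because members were deeper, reference nuclei were weighted by depth class to the depth of the members of their library, and levels are given as CPM, the share of a gene in the UMIs of the sum scaled to the usual base of this unit. The median share of mitochondrial UMIs was 0.0671% in HKO members and 0.247% in WT members, against 0.0750% and 0.328% in reference nuclei.

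The label of these nuclei, hepatocytes in S phase, was checked against genes the rule did not use. All 15 hepatocyte markers were detected in the members of both libraries, and every member had at least 5 UMIs of them. Alb, the plasma protein albumin, was at 2648 CPM in HKO members and 2457 CPM in their reference, and at 6047 and 6325 CPM in WT. Hepatocyte transcripts also occur as free RNA in droplet data, so these UMIs alone do not name a cell. Marker sums of other cells stayed close to the reference. The highest, macrophage markers, reached 171 CPM in HKO members against 154 CPM in the reference, and 199 against 189.5 CPM in WT. Cholangiocyte markers were at 129 against 114 CPM in HKO and 163 against 144 CPM in WT. Most of these sums was Pkhd1, at 111 against 95.2 CPM in HKO, from 159 of 417 members. In WT Pkhd1 was at 147 against 129 CPM, from 383 of 812 members. Krt7, Epcam and Ehf of the same list were at 0 in the members of both libraries. The endothelial, stellate, T and NK, B, dendritic, neutrophil, erythroid and mesothelial lists each summed to under 100 CPM in members. Haemoglobin stood apart, at 158 CPM in WT members against 2.47 CPM in the reference, and 655 of its 665 UMIs came from 1 WT nucleus. At least 5 UMIs of any of these other-cell lists or of haemoglobin were found in 18 of 417 HKO and 35 of 812 WT members, and their part in the results is given by leaving them out, in the closing section.

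The transcripts did not set S phase apart from G2 phase. Nuclei of the same gate with 2 or more UMIs of the G2 and mitosis genes, called G2/mitosis-positive, numbered 835 in HKO and 2181 in WT. Of these, 360 in HKO (43.1%, 39.7 to 46.6) and 940 in WT (43.1%, 41.0 to 45.2) also passed the 15-gene rule. The 15 genes summed to 866 CPM (838 to 896) in G2/mitosis-positive HKO nuclei, which were not chosen on them, and to 950 CPM (911 to 990) in the members that were. In WT the sums were 1001 CPM (981 to 1021) and 1088 CPM (1056 to 1120). The members are therefore described by their rule, as nuclei with replication transcripts and few G2 or mitosis transcripts.

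Members made up 5.79% (5.26 to 6.36, 417 of 7199) of gated hepatocyte nuclei in HKO and 9.02% (8.44 to 9.63, 812 of 9001) in WT. The share was higher in deeper nuclei. In HKO it was 4.11% (2.92 to 5.595) in nuclei of 2000 to 2500 UMIs and 23.5% (15.7 to 33.0) in nuclei over 12000 UMIs. In WT it went from 3.47% (2.74 to 4.32) to 29.9% (20.5 to 40.6). The shares of the libraries overlapped at the lowest depth, and in each class from 3500 to 12000 UMIs the WT share lay above the HKO share with intervals apart. After every gated nucleus was thinned to 2000 UMIs, with 0 nuclei left out, 1.32% (1.07 to 1.61) of HKO and 2.39% (2.08 to 2.73) of WT nuclei passed.

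The same rule, with the limit on G2 and mitosis genes, was read in barcodes holding at least 3 UMIs of other cells' genes, as a background. It was passed by 10.0% (8.49 to 11.8) of HKO and 10.0% (8.44 to 11.8) of WT endothelial barcodes, with median depths of 4333.5 and 3892 UMIs. It was passed by 15.5% (12.5 to 18.9) and 11.4% (8.88 to 14.3) of macrophage barcodes, at 4154 and 3707.5 UMIs, and by 10.1% and 10.2% of stellate barcodes. Thinned, the endothelial shares were 0.893% (0.462 to 1.55) and 2.08% (1.38 to 3.01), and the macrophage shares 4.36% (2.78 to 6.47) and 3.56% (2.19 to 5.44). Those cells also divide after hepatectomy, so none of these classes is known to lack the genes. The thinned hepatocyte shares overlapped the endothelial ones in both libraries and lay under the macrophage share in HKO, so they are not read as standing above this background.

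**Figure D1:**
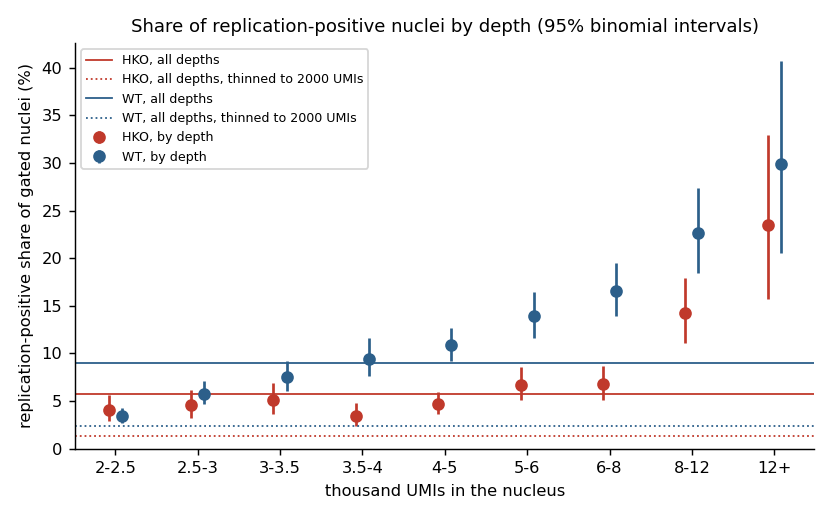
Share of gated hepatocyte nuclei that were replication-positive (vertical axis, percent) by the number of UMIs in the nucleus (horizontal axis), for HKO (red) and WT (blue); bars are 95% binomial intervals, solid lines the share over all depths (5.79% and 9.02%) and dotted lines the share after thinning to 2000 UMIs (1.32% and 2.39%). The share was higher in deeper nuclei of both libraries.

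Near the threshold, 417 HKO and 788 WT nuclei had 3 UMIs of the 15 genes and stayed outside. Of the nuclei with exactly 4 such UMIs, 180 of 221 in HKO and 314 of 383 in WT were members, the others holding fewer than 3 genes. Most members were close to the threshold, with a median of 5 rule UMIs in each library. The highest nucleus had 20 rule UMIs in HKO and 22 in WT, and the most rule genes detected in a nucleus were 9 and 11.

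Because the 15 genes chose the nuclei, each was read in nuclei chosen by the other 14 under the same threshold. All 15 were higher than in the matching reference in both libraries. The median fold was 3.24 in HKO (1.38 to 7.36 over genes) and 2.40 in WT (1.21 to 3.81). Intervals of nuclei and reference were apart for 14 genes in HKO and 13 in WT. A log2 ratio of at least 1 was reached by 13 and 12 of the 15, where 0.721% of 8321 genes in HKO and 0.510% of 8240 genes in WT reached it in the members as chosen. These shares cover genes that averaged at least 10 CPM, whereas the 15 were counted with no minimum level. Mcm3, Mcm4, Mcm5, Clspn and Rfc3 in HKO and Clspn in WT averaged less, so the counts and shares are not like for like. The genes were picked as replication genes with these data known, so their direction is a description.

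Uhrf1 (chr17:56303321-56323486, plus strand, GRCm38), which brings the maintenance methyltransferase to newly copied DNA, had the largest fold in both libraries. It was at 19.7 CPM (14.5 to 26.3) against 2.68 CPM in HKO, a fold of 7.36, and at 23.3 CPM (18.8 to 28.5) against 6.12 CPM in WT, a fold of 3.81. Dtl, the adaptor of the ubiquitin ligase that removes the licensing factor Cdt1 in S phase, was at 34.6 CPM (27.2 to 43.3) against 6.46 CPM in HKO and at 50.7 CPM (43.8 to 58.3) against 15.3 CPM in WT. The helicase genes were higher together. Mcm6 was at 43.8 CPM (35.2 to 53.7) against 11.9 CPM in HKO and 64.2 CPM (56.4 to 72.9) against 21.8 CPM in WT. Mcm3 had folds of 3.96 and 2.79, Mcm4 of 3.95 and 2.57, and Mcm5 of 3.47 and 2.58 in HKO and WT. Mcm7 was the weakest of the ring genes in the rule, with 1.65 in HKO, where the intervals touched, and 2.16 in WT.

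Among polymerase genes, Pole, the catalytic subunit of the leading strand polymerase, was at 29.9 CPM (23.2 to 38.0) against 5.95 CPM in HKO and 44.1 CPM (37.8 to 51.3) against 18.4 CPM in WT. Pola1, the catalytic subunit of the polymerase that extends primers, had folds of 2.67 and 1.93 and was detected in 47.5% and 53.6% of the nuclei chosen by the other genes. Rfc3, of the clamp loader, had folds of 2.41 in HKO and 1.60 in WT, the latter with touching intervals. Clspn, a checkpoint mediator at the fork, had folds of 3.24 and 2.98. Brip1, a helicase partner of Brca1, had 2.55 and 2.04. Rrm1, the large subunit of ribonucleotide reductase, had 3.11 and 2.09, and Atad2, a chromatin ATPase, had 2.89 and 2.10. Mcm10 (chr2:4989714-5012791, minus strand), a firing factor, was lowest with 1.38 and 1.21, and in WT its intervals touched. For 14 of 15 genes the fold was larger in HKO. The reference of that library held less of the 15 genes, 188 CPM (182 to 195) in sum against 286 CPM (277 to 295) in WT.

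**Figure D2:**
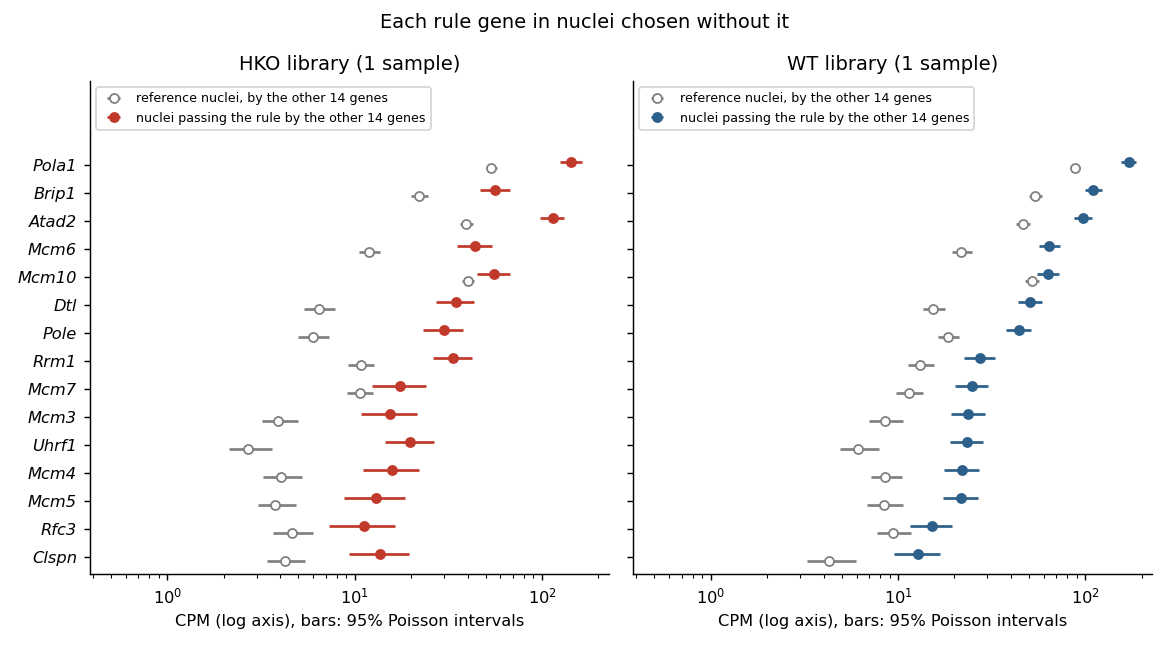
Level of each of the 15 replication genes (CPM, log axis) in nuclei that passed the rule by the other 14 genes (filled) and in the depth-matched reference (open), for the HKO and WT libraries; bars are 95% Poisson or Fay-Feuer intervals. All 15 filled points lie to the right of the open points, from a fold of 1.38 (Mcm10) to 7.36 (Uhrf1) in HKO.

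Promoter letters give these genes a shared feature that the rule did not use. RefSeq promoters (GRCm38.p6, 250 bases before to 50 after the gene start) were matched for 12 of the 15 rule genes, and were searched on both strands for the E2F letters TTTGGCGC, TTTCGCGC or TTCCCGCC. A match was present in 10 of 12 rule genes (83.3%), against 3.39% of 27025 genes with a promoter window and 6.42% of the 6075 measured ones. Mcm10 and Brip1 had a window without these letters. The CCAAT letters were in 12 of 12 rule genes and in 41.1% of all. The CHR letters TTTGAA were in 0 of 12 rule genes and 20.2% of all. Of the 9 G2 and mitosis genes that limit the rule, 8 were matched, and 0 held E2F letters, 6 CHR letters and 8 CCAAT letters. TTCCCGCC followed by AAT shares its last letters with CCAAT, so these 2 matches can overlap. The windows of 30 bases below show why the sets look different, with 1 match each in capitals, also where another match overlaps it or lies elsewhere in the promoter, written 5′ to 3′ on the strand of the gene. A capital run of GGCGGGAA, GCGCCAAA or GCGCGAAA is an E2F word read on the opposite strand, and TTCAAA is the CHR word read so.
Mcm3 (chr1:20820276-20820305, minus strand): taaacttccgtGGCGGGAAaacttgggaag
Mcm5 (chr8:75109345-75109374, plus strand): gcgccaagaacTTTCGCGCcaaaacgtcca
Mcm6 (chr1:128359797-128359826, minus strand): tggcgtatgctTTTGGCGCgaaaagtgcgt
Mcm7 (chr5:138171849-138171878, minus strand): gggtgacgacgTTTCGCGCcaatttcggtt
Pola1 (chrX:93632275-93632304, minus strand): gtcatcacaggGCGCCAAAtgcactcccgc
Dtl (chr1:191575534-191575563, minus strand): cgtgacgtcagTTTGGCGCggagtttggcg
Clspn (chr4:126556990-126557019, plus strand): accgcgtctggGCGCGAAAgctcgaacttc
Rfc3 (chr5:151651200-151651229, minus strand): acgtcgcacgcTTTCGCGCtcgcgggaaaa
Rrm1 (chr7:102441617-102441646, plus strand): aggagaactcgTTCCCGCCaggtccgcttt
Uhrf1 (chr17:56303278-56303307, plus strand): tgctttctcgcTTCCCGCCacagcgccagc
Top2a, CHR (chr11:99024194-99024223, minus strand): ctagataaaggTTCAAAtgaaactagggaa
Mki67, CHR (chr7:135716477-135716506, minus strand): tagcgccagaaTTTGAAccgccgttttggt
Kif11, CHR (chr19:37376352-37376381, plus strand): cgtctccatttTTCAAAattgaggcgcgga

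In the windows of Mcm3, Mcm7 and Clspn the E2F letters lay inside the transcribed part, and in the other 7 rule genes they lay upstream of the RefSeq start. Those of Rfc3 lay upstream of that start but inside the gene by its GENCODE coordinates. The same letters were less common in the lists that the rule did not use, at 7 of 19 matched licensing genes (36.8%), 7 of 22 fork genes (31.8%), 6 of 18 chromatin genes (33.3%) and 6 of 25 repair genes (24.0%). They were in 6 of 47 further G2 and mitosis genes (12.8%), of which 35 (74.5%) held CHR letters, and in 0 of 23 secreted protein genes. Of the 30 genes higher in members of both libraries described next, 27 were matched and 8 (29.6%) held E2F letters, and 8 held CHR letters. Among them Lig1 (chr7:13278841-13278870, plus strand) read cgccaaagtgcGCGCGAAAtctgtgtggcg and Prim1 (chr10:128015189-128015218, plus strand) read ggcctgtcttgTTCCCGCCaattctcgtgt. A match is a run of letters and not a measured binding site.

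Outside the rule, 30 of 7872 genes measured in both libraries (0.381%) had a log2 ratio of members over reference of at least 1 in each, and 0 genes (0%) had -1 or less in each. A gene was measured when the mean of its sums was at least 10 CPM, and 0.5 CPM was added before taking a ratio. Read separately, 60 genes were that much higher and 1 (0.012%) lower in HKO, and 42 were higher and 0 lower in WT. Of the 30, 19 had a reference level under 10 CPM in HKO and 12 in WT, so they passed the minimum level only through the members, where they are high, and had to differ. At a minimum of 20 CPM the list held 12 genes. By another reading, intervals of members lay above those of the reference in both libraries for 158 genes (2.01%) and below them for 20 (0.254%). Of the 30 genes, 20 were in the lists of replication, repair, chromatin and mitosis genes. The other 10 were Zgrf1, Rad54b, Chek2, Kntc1, Rad18, Spc24, Zwilch, Poc1a, Spag5 and Cep128, which act in DNA repair, at kinetochores or at centrosomes and spindles as far as their textbook roles go. Of the 7872 genes, these lists held 12 licensing, 16 fork, 19 repair, 15 chromatin and 6 further mitosis genes. The lists were chosen with earlier results of these data known, so the overlap is a description. The median level of the 30 genes was 24.5 CPM in HKO members against 7.48 CPM in the reference, and 31.9 against 12.3 CPM in WT. The log2 ratio was larger in HKO for 26 of the 30. The median over all genes was 0.01 in HKO and 0.02 in WT.

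The counts and medians of the lists that follow cover only the genes that passed the minimum level, some of them only through the members, and are a description. Counts in both libraries cover the genes measured in both. A median of members over reference covers all genes of the list measured in that library, which can be more genes. Summed over every listed gene in the files, with no minimum level, licensing genes were at 668 CPM in HKO members against 443 CPM in the reference, and at 647 against 454 CPM in WT. Fork genes summed to 792 against 412 CPM in HKO and 775 against 464 CPM in WT. Repair genes summed to 1180 against 699.8 CPM and 1214 against 754 CPM, and chromatin genes to 993 against 621 CPM and 989 against 642 CPM, in the same order.

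Licensing and firing genes were the first group. Of 12 measured in both libraries 1 was at least 2-fold higher in each, 11 were above 0 in both and 0 below, with median log2 ratios of 0.73 in HKO and 0.62 in WT. Cdc45 (chr16:18780447-18811987, minus strand), which activates the helicase, had 44 UMIs in HKO members, or 18.4 CPM (13.4 to 24.7) against 3.73 CPM (2.78 to 5.10) in the reference. In WT it had 78 UMIs, 18.6 CPM (14.7 to 23.2) against 6.74 CPM (5.44 to 8.64). Its member levels were alike in the libraries, and its reference levels were apart from them in both. Mcm2, the ring subunit that the rule left out, was at 18.4 CPM (13.4 to 24.7) against 2.54 CPM (1.77 to 3.75) in HKO and at 13.6 CPM (10.3 to 17.6) against 6.85 CPM (5.65 to 8.63) in WT. Its log2 ratios were 2.64 and 0.94. Gins1 and the firing factor Topbp1 had log2 ratios of 1.28 and 1.25 in HKO and 0.83 and 0.78 in WT. Orc4 and Orc5, of the origin recognition complex, were flat, between -0.01 and 0.06.

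Fork and polymerase genes had the largest medians of the replication lists, 1.24 in HKO and 0.83 in WT, and 5 of 16 were at least 2-fold higher in both. Lig1 (chr7:13277283-13311433, plus strand), the ligase that joins Okazaki fragments, was at 17.2 CPM (12.3 to 23.3) against 3.29 CPM (2.60 to 4.37) in HKO. In WT it was at 24.8 CPM (20.2 to 29.99) against 7.51 CPM (6.12 to 9.49). Prim1, the primase subunit that starts each fragment, had log2 ratios of 1.98 and 1.34, and its partner Prim2 of 1.52 and 0.95. Timeless, of the fork protection complex, had 1.42 and 1.24. Wdhd1, which ties the helicase to the first polymerase, had 1.89 and 1.07, and Atad5, which unloads the clamp, had 1.47 and 1.07. Pcna, the clamp itself, was a low gene in nuclear RNA, with 23 UMIs in HKO and 58 in WT members. It was at 9.63 CPM (6.11 to 14.5) against 4.69 CPM in HKO, where it was under the minimum level, and at 13.8 CPM (10.5 to 17.8) against 6.97 CPM in WT. Rfc1, Rfc2 and Dna2 were between 0.19 and 0.83, and Pole4 had 0.13 in HKO and -0.18 in WT.

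Repair and fork protection genes followed, with 5 of 19 at least 2-fold higher in both, 18 above 0 in both and medians of 0.66 and 0.57. Fanca (chr8:123268300-123318576, minus strand), of the Fanconi core complex that acts on crosslinks, had nearly the same ratio in each library, 1.78 and 1.79. It was at 18.0 CPM (13.0 to 24.3) against 4.88 CPM (4.003 to 6.14) in HKO and at 20.9 CPM (16.8 to 25.8) against 5.68 CPM (4.65 to 7.30) in WT. Blm, a helicase that unwinds recombination intermediates, had log2 ratios of 2.06 and 1.23. Brca1 and Brca2, which protect stalled forks, had 1.11 and 1.54 in HKO and 1.27 and 1.18 in WT. Parp1, which senses strand breaks, was not higher, at 0.02 in HKO and -0.44 in WT.

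Chromatin genes, which assemble and mark chromatin on copied DNA or build the centromere, had medians of 1.03 and 0.80, with 4 of 15 at least 2-fold higher in both and 15 of 15 above 0 in both. Over all 7872 genes, 31.6% were above 0 in both. Cenph (chr13:100759674-100775899, minus strand), a centromere protein, had the largest ratio of all genes by the smaller of the libraries, 2.85 in HKO and 1.88 in WT. It was at 26.8 CPM (20.6 to 34.2) against 3.27 CPM (2.55 to 4.39) in HKO, from 55 nuclei, and at 29.3 CPM (24.3 to 34.9) against 7.59 CPM (6.30 to 9.46) in WT, from 104 nuclei. Cenpk and Cenpp, of the same centromere group, had 1.75 and 1.64 in HKO and 1.20 and 1.30 in WT. Hells, a chromatin remodeller, had 1.23 and 1.34, and Dnmt1, the maintenance methyltransferase that Uhrf1 recruits, had 1.09 and 0.85. Tlk1, a kinase of histone chaperones, was flat at 0.01 and 0.07.

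Nucleotide supply, cell cycle control and cohesion differed less. Of 11 nucleotide genes 0 reached 2-fold in both libraries, with medians of 0.20 and 0.24. Tyms, thymidylate synthase, had log2 ratios of 0.89 and 0.83. Of 16 genes of G1/S control, 0 reached 2-fold in both and 13 were above 0 in both. E2f1, an activator of the E2F family, was at 20.5 CPM (15.2 to 27.1) against 4.59 CPM (3.75 to 5.81) in HKO and at 14.04 CPM (10.7 to 18.1) against 7.16 CPM (5.86 to 9.05) in WT. Mybl1 had 1.46 and 0.89 and Rbl1, a pocket protein, 1.62 and 0.81. Ccnd1, cyclin D1, had 0.60 and 0.40, while Ccnd3 was at -0.19 and -0.16. Ccne2, cyclin E2, had 0.49 and 1.24 from 31 and 57 UMIs, under the minimum level in WT. Of 12 cohesion genes 0 reached 2-fold in both, with medians of 0.19 and 0.16. Of 20 histone genes, whose replication-dependent transcripts mostly lack a poly(A) tail, 2 were measured in both. One of them, Hist1h2bc, was flat at -0.15 and -0.01.

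Mitosis genes that the rule did not limit were listed too, 57 in all. Their sum, with no minimum level, was 363 CPM (339 to 388) in HKO members against 163 CPM in the reference, and 506 CPM (484 to 528) against 282 CPM in WT. Only 6 passed the minimum level in both libraries, and 5 of these did so in HKO only through the members, so no count over them is read. The 5 were Ncapg2, Smc2 and Ncapd2 of the condensin complexes and the kinesins Kif15 and Kif20b, and the sixth was Smc4, with log2 ratios of 0.86 and 0.83. Ncapg2 was at 19.7 CPM (14.5 to 26.2) against 4.59 CPM in HKO and at 30.7 CPM (25.6 to 36.5) against 10.1 CPM in WT. The genes of the limit also stayed above the reference in sum, at 68.3 CPM (58.2 to 79.6) against 42.5 CPM in HKO and 89.3 CPM (80.5 to 98.8) against 74.5 CPM in WT, with at most 1 UMI per nucleus.

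**Figure D3:**
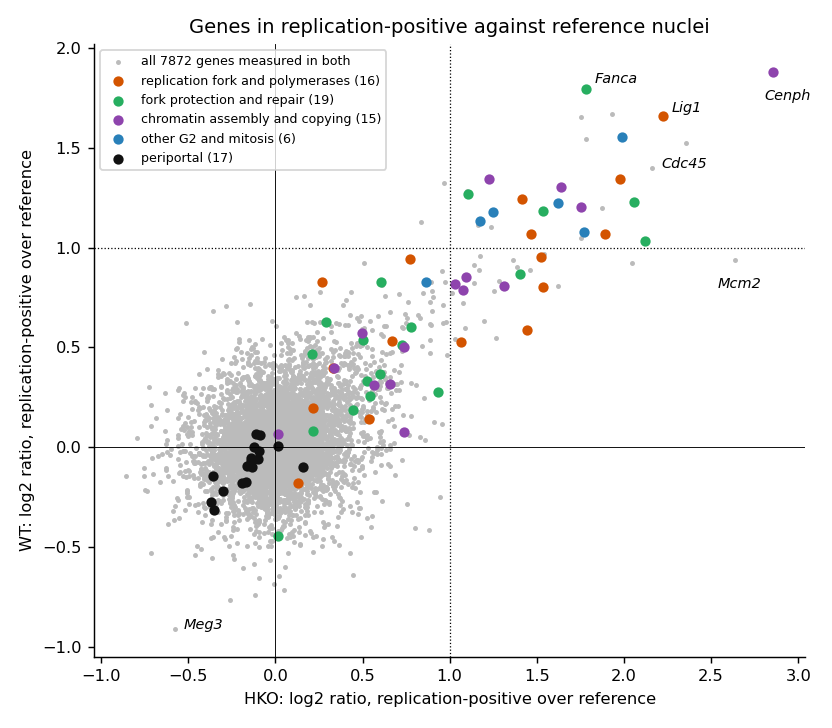
Log2 ratio of members over depth-matched reference nuclei in HKO (horizontal) and WT (vertical) for 7872 genes measured in both libraries (grey), with 5 gene lists coloured; dotted lines mark a log2 ratio of 1. The 30 genes past both lines are replication, repair, chromatin and mitosis genes or have such textbook roles, whereas periportal genes lie near or under 0. The lists were chosen with earlier results of these data known.

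Replication lists were higher in nuclei with more rule UMIs. In nuclei with 0, 1, 2, 3, 4 to 5 and at least 6 rule UMIs, and at the depth of the members, fork genes summed to 378, 394, 439, 514, 650 and 1049 CPM in HKO. In WT the same steps gave 403, 433, 488, 526, 617 and 975 CPM. Repair genes went from 695 CPM at 0 and 689 CPM at 1 rule UMI to 825 CPM at 3 and 1541 CPM (1452 to 1637) at 6 or more in HKO, and from 715 through 856 to 1508 CPM (1447 to 1572) in WT. The nuclei with 3 rule UMIs, just outside the rule, thus lay above those with 0 in both libraries, with intervals apart for these 2 lists. Secreted protein genes stayed between 21260 and 22706 CPM in HKO, and went from 66180 CPM at 0 to 56193 CPM at 6 or more in WT.

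**Figure D4:**
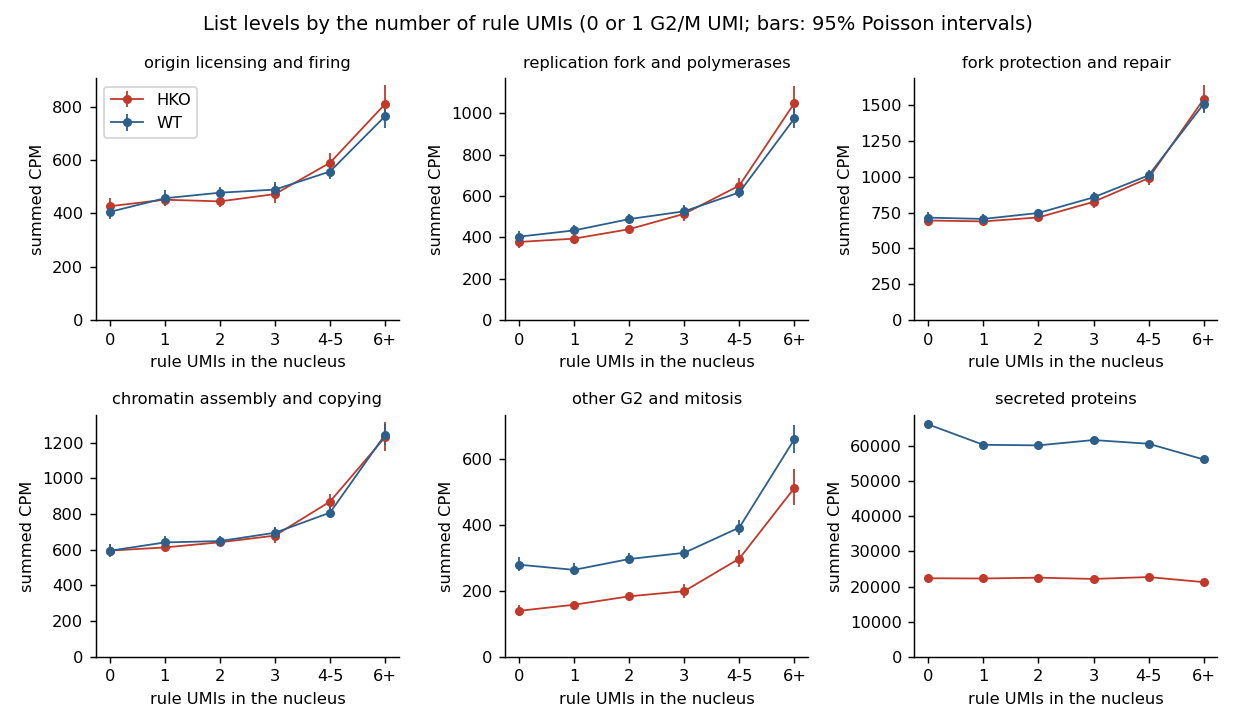
Summed level (CPM) of 6 gene lists by the number of rule UMIs in the nucleus, for HKO (red) and WT (blue) nuclei with at most 1 UMI of the G2 and mitosis genes, weighted to the depth of the members; bars are 95% Poisson or Fay-Feuer intervals. Fork genes went from 378 to 1049 CPM in HKO and from 403 to 975 CPM in WT, while secreted protein genes did not increase.

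Set against G2/mitosis-positive nuclei, weighted to the same depth, members were lower for most of these genes. All 30 genes that were at least 2-fold higher than in the reference were lower in members than in G2/mitosis-positive nuclei in both libraries, and 7 of them at least 2-fold lower in both. Over all measured genes 32.8% were lower in both, and 0.152% at least 2-fold lower. The median log2 ratio of the 30 was -0.89 in HKO and -0.60 in WT. Kif15, a spindle kinesin, was at 16.8 CPM in HKO members and 82.3 CPM in G2/mitosis-positive nuclei, and at 20.9 and 80.1 CPM in WT. Cenpp was at 82.9 and 331 CPM in HKO and 88.3 and 241 CPM in WT. Brca1 was at 53.6 and 108 CPM in HKO and 41.2 and 82.1 CPM in WT. The gaps were narrow for Timeless, 24.7 and 28.2 CPM in HKO and 36.9 and 37.8 CPM in WT, and for Cdc45, 18.4 and 20.02 CPM in HKO and 18.6 and 19.96 CPM in WT.

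As lists, 13 of 16 fork genes, 16 of 19 repair genes and 15 of 15 chromatin genes were lower in members than in G2/mitosis-positive nuclei in both libraries. The split by G2 and mitosis genes bears on these counts too. Licensing genes had medians of -0.07 and -0.11. The 5 ring genes of the rule went the other way. Mcm3, Mcm4, Mcm5, Mcm6 and Mcm7 were higher in members in both libraries, with log2 ratios of 0.20 to 0.61 in HKO and 0.23 to 0.55 in WT. These genes helped choose the members and not the other nuclei. Over all 15 rule genes, 8 were higher in members in both libraries, 3 were lower (Clspn, Uhrf1 and Pole) and 4 went opposite ways, and nothing is read from values that chose the members. Mcm2, which chose no nucleus, was at 18.4 CPM in HKO members and 12.1 CPM in G2/mitosis-positive nuclei, but at 13.6 and 17.1 CPM in WT, so its order was not the same in the libraries.

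The hepatocyte programme differed little between members and reference. Of 30 genes of secreted plasma proteins 0 were past 2-fold, and 17 were below 0 in both libraries with medians of -0.03 and -0.05, where 25.3% of all genes were below 0 in both. Of 17 periportal genes, whose enzymes lie on the inflow side of the lobule, 12 were below 0 and 1 above 0 in both, with medians of -0.14 and -0.10. Hal, which breaks down histidine, was at 47.3 CPM (39.0 to 56.9) against 60.5 CPM (56.6 to 64.8) in HKO, where the intervals touched, and 239 CPM (224 to 254) against 297 CPM (286 to 308) in WT. Sds, serine dehydratase, was at 254 CPM (234 to 275) against 328 CPM (319 to 338) in HKO and at 74.7 CPM (66.7 to 83.5) against 90.3 CPM (84.9 to 96.3) in WT, with intervals apart in each. Cyp2f2 had log2 ratios of -0.30 and -0.22. Of 21 pericentral genes 2 were above 0 and 3 below 0 in both. Glul, glutamine synthetase of the cells next to the central vein, was at 218 CPM (204 to 233) against 308 CPM (298 to 319) in WT and at 117 CPM (104 to 132) against 125 CPM (120 to 131) in HKO.

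By nucleus, the share of periportal among periportal and pericentral UMIs had a median of 76.5% in HKO members and 79.2% in their reference, and of 67.8% and 66.7% in WT. The middle quartiles of members ran from 64.2% to 86% in HKO and from 55.6% to 77.2% in WT. The difference of the medians from the reference was not in the same direction in the libraries. Among 15 liver transcription factors 10 were below 0 and 2 above 0 in both, with medians of -0.08 and -0.02. Foxa2 had -0.41 and -0.28 and Cebpa, a factor of the quiescent hepatocyte, -0.40 and -0.22, both with touching intervals. The lowest ratio in both libraries by the smaller of them was that of Meg3 (chr12:109541001-109571726, plus strand), an imprinted noncoding RNA, with -0.57 and -0.91. Its 99 UMIs in HKO members came from 32 nuclei, and 34 of them from 1 nucleus.

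The targeted gene came first in the comparison of the libraries. Sox9 (chr11:112782224-112787760, plus strand), a factor of the bile duct lineage, had 12 UMIs in HKO members and 57 in WT members, or 5.03 CPM (2.60 to 8.78) and 13.6 CPM (10.3 to 17.6), which on average is under the minimum level of 10 CPM. It was 2.70-fold (1.43 to 5.53) higher in WT members, and at 5.32 and 11.4 CPM in the HKO and WT reference. Which part of Sox9 is deleted is not given in the labels, so reads at its 3' end need not show the deletion.

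Between the libraries, members differed in hepatocyte genes much as the reference did, and little in replication genes. The rule asked for the same replication transcripts in both libraries, and members had a median of 5 rule UMIs in each. Likeness of the members in replication genes is therefore partly set by the choice and is not read as a result. Of 8397 genes measured in members, 310 (3.69%) had a log2 ratio of HKO over WT of at least 1 and 412 (4.91%) of -1 or less. In the reference the same genes gave 272 (3.24%) and 404 (4.81%). A gene was measured here when its HKO and WT member sums averaged at least 10 CPM. It could pass through 1 library alone, where it is high, and then had to differ in that direction. Counts and medians of HKO over WT, here and below, are therefore a description. The median over all genes was 0.16 in members and 0.18 in the reference. TMM factors, another scaling of the sums, shift each ratio by -0.16. Under them 200 genes passed the size in HKO and 523 in WT, so that 27.7% of the genes past it were higher in HKO, where the CPM scale gave 42.9%. With 1 liver library on each side, genotype, animal and library preparation cannot be told apart.

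The replication lists lay nearer the all-gene median in members, which were chosen on replication transcripts, than in the reference, which was not held to such a level. Fork genes had a median log2 ratio of HKO over WT of 0.04 in members and -0.34 in the reference, and licensing genes of -0.01 and -0.29. Chromatin genes had -0.09 and -0.39 and repair genes -0.05 and -0.21. TMM factors lower each of these medians in members by 0.16, which turns that of fork genes negative. Of 18 fork genes 0 were past 2-fold in either direction in members, as were 0 of 17 licensing and 0 of 18 chromatin genes. Of 26 repair genes 2 were higher in HKO and 0 lower. The 2 were Wee1, the kinase that holds back mitosis, at 30.2 CPM (23.6 to 38.0) in members of the HKO library and 9.28 CPM (6.60 to 12.7) in those of WT, and Rbbp8, which starts end resection, at 129 CPM (115 to 144) and 52.8 CPM (46.1 to 60.3). Their log2 ratios were 1.65 and 1.28 in members and 1.59 and 1.10 in the reference. The 30 genes higher in members had a median of -0.16 in members and -0.64 in the reference. The 12 measured mitosis genes had a median of -0.47 in members and -0.69 in the reference, and in members 1 was at least 2-fold lower in HKO and 0 higher. Against the reference only 6 of the list had passed the minimum level in HKO and 12 in WT. Genes of the 12 could thus pass through WT alone, and nothing is read from this median and count. Summed over all 57 with no minimum level, the list was at 363 CPM in HKO members and 506 CPM in WT members.

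Among G1/S genes the D-type cyclin Ccnd3 had 206 CPM (189 to 226) in HKO members and 70.9 CPM (63.1 to 79.5) in WT members, and Mybl1 at 72.9 CPM (62.4 to 84.5) and 35.7 CPM (30.2 to 41.9). The ratio of Ccnd3 was alike in the reference, 1.57, whereas that of Mybl1 was 1.02 in members and 0.44 in the reference. Gdf15, a stress-induced secreted factor, had 19.7 CPM (14.5 to 26.2) in HKO members and 45.7 CPM (39.5 to 52.6) in WT members.

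Outside the cell cycle the members carried the differences of their library. Interferon response genes had a median of -2.43 in members and -2.34 in the reference, with 12 of 16 at least 2-fold lower in HKO. Those low in HKO could pass the minimum level through WT alone, so this count and median are a description. Summed over all 24 listed genes, with no minimum level, they were at 838 CPM (802 to 876) in HKO members and 4246 CPM (4183 to 4308) in WT members. Iigp1, an interferon-induced GTPase, had 104 CPM (91.3 to 118) in HKO members and 1873 CPM (1832 to 1915) in WT members. Secreted protein genes had medians of -1.49 and -1.50, with 21 of 30 at least 2-fold lower. Cholesterol synthesis genes had -1.05 in members and -1.24 in the reference, with 12 of 24 at least 2-fold lower. Clock genes had 1.02 and 0.95, with 8 of 16 at least 2-fold higher and 3 lower in HKO. Per1, a clock repressor, had 74.1 CPM (63.6 to 85.9) in HKO members and 7.62 CPM (5.21 to 10.8) in WT members.

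The highest ratio was that of Cux2, a homeobox factor, with 234 UMIs in HKO and 10 in WT members, a fold of 41.2 (21.99 to 87.0). Lepr, the leptin receptor, was 22.2-fold (10.9 to 52.9) higher in HKO, and the other 8 of the 10 highest were Selenbp2, Ciart, Lpin1, Cyp4a10, AA986860, Zbtb16, Per1 and Usp2. The lowest were Hba-a2, Gbp6, Cyp26a1, Mup11, Hba-a1, Cxcl10, Iigp1, Scd1, Hbb-bs and Mup7. Of these the 3 haemoglobin genes rest on 1 WT nucleus, which held 178 of 179 UMIs of Hba-a1, 180 of 181 of Hba-a2 and 225 of 232 of Hbb-bs. Scd1, which desaturates fatty acids, had 5.03 CPM (2.60 to 8.78) in HKO members and 94.7 CPM (85.7 to 105) in WT members. The log2 ratios of Cux2, Lepr and Scd1 in the reference were 5.06, 4.57 and -4.11, against 5.10, 4.15 and -4.11 in members.

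The difference between the libraries was close to that of the reference for most genes. Among 5601 genes of at least 20 CPM in all 4 sums, the log2 ratio of HKO over WT differed between members and reference by 1 or more in 0 genes (0%) in either direction. That minimum left out many replication genes. Of the 30 genes higher in members, 19 had under 10 CPM in the HKO reference and 12 in the WT reference, so the 0 does not cover them. The largest gains were 0.82 for Nsdhl, a cholesterol synthesis enzyme, 0.79 for Snrpd3 and 0.76 for Kif26b, followed by Atraid, Rpsa and Mre11a. The largest losses were -0.78 for Eef2k and -0.75 for Vdac2, followed by Carf, Atp5sl, Fastk and Carnmt1. Nsdhl was at 42.3 CPM (34.5 to 51.4) in HKO members against 23.1 CPM in their reference, and at 78.3 CPM (70.1 to 87.2) against 76.2 CPM in WT. Below that minimum level, and picked after their values were seen, Mcm2 and E2f1 had larger gaps. Mcm2 had a log2 ratio of HKO over WT of 0.43 in members and -1.27 in the reference, and E2f1 of 0.53 and -0.59. In both genes the HKO reference was the lowest of the 4 levels, at 2.54 CPM for Mcm2 and 4.59 CPM for E2f1. None of these gaps was tested.

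**Figure D5:**
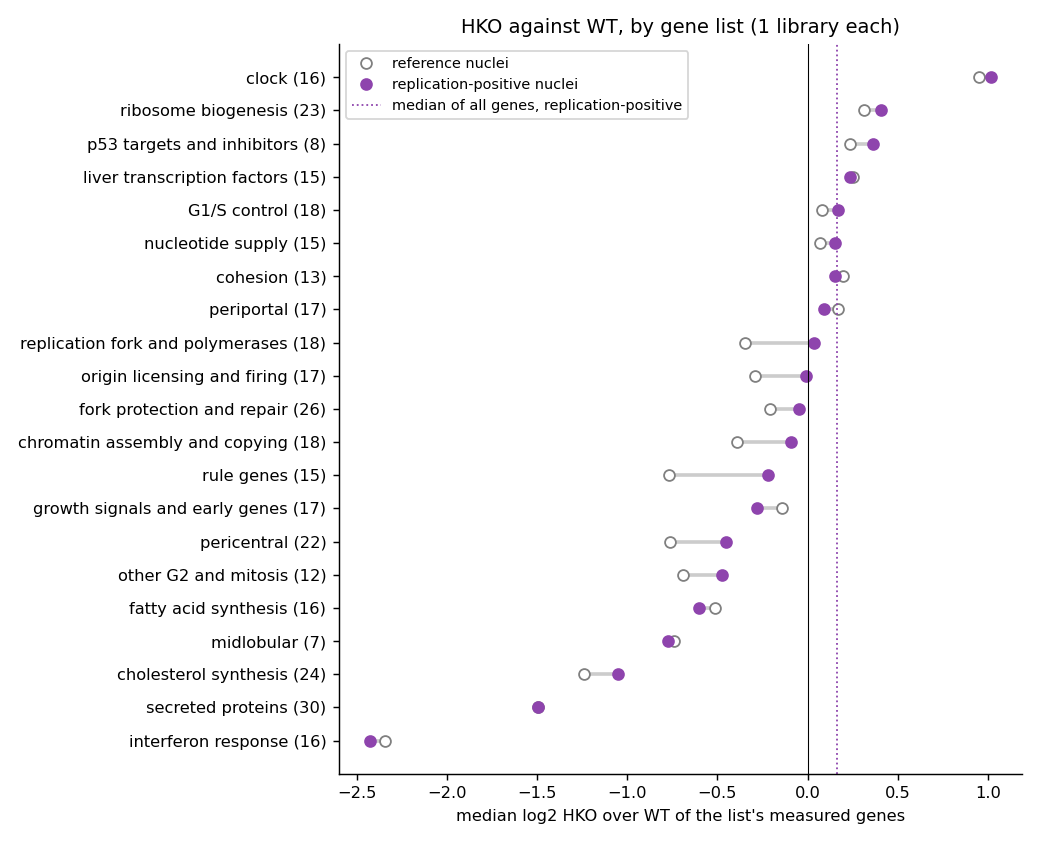
Median log2 ratio of HKO over WT (horizontal axis) of the measured genes of each list, with their number in parentheses, in members (purple) and reference nuclei (open), 1 library each; the dotted line is the median of all genes in members, 0.16. Fork genes had 0.04 in members and -0.34 in the reference, while interferon genes had -2.43 and -2.34. A gene could pass the minimum level through 1 library alone, so the medians are a description. Members of both libraries were chosen by the same rule on replication transcripts, which partly sets their likeness in the replication lists.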

How the data were processed

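The authors deposited raw counts of UMIs per gene and barcode, 1 matrix per library, not normalized. Cell Ranger 5.0.0, Seurat 3.2.0, STAR and GRCm38 are named per the submitters' processing notes, which state neither role nor order. Per the labels, the extract protocol covers total RNA purification, and no source here tells how nuclei were obtained. Doublets were not removed and no caller was run. An upper limit on UMIs per nucleus was tried instead.

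Members, gene lists and named genes were chosen with earlier results of these data known. Members and gate followed the rule given in the report. Counts were summed per library and scaled to CPM. The reference was weighted over 9 depth classes. Ratios are log2 of CPM plus 0.5, kept where the sums compared average 10 CPM or more. Intervals are exact Poisson, Fay-Feuer (weighted reference), Clopper-Pearson (shares) or exact conditional (folds between libraries), at 95% confidence. With 1 library per group no test was run. The calculation was tested on Poisson counts simulated from reference rates, with folds planted in measured genes and estimates centred on their median. No nuclei were chosen by rule UMIs there, so it cannot speak to effects of that choice, of the minimum level or of extra spread.

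Named genes were the 15 rule genes, the 12 highest and 12 lowest ratios of members over reference by the smaller of the libraries, and up to 4 genes per list by that measure. They also included the 10 highest and 10 lowest ratios of HKO over WT, 6 per direction by the gap between members and reference, up to 3 per list by the ratio of HKO over WT, and Sox9. Unnamed gene models, mitochondrial, Xist and Y-linked genes were left out. Genes named in addition were chosen after their values were seen. Of 27998 gene identifiers, 27645 matched GENCODE vM21, which gave gene coordinates, and promoters came from RefSeq. Gbp6 has more than 1 row, and the row with most UMIs was read. Alternatives changed the member rule, gate, depth weighting, weight per nucleus, scaling and minimum level. R 4.3.3 with edgeR 4.0.16 gave TMM factors only, and all else ran in Python 3.11.15 with pandas 2.3.3, scipy 1.17.1, numpy 2.4.6 and matplotlib 3.10.9.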

Additional observations from a re-analysis of the deposited data

Results flagged for a closer look

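Named genes measured in both libraries and the sums of the gene lists were searched for opposite directions, and other genes were not. In 4 cases the difference between members and reference went in opposite directions in the libraries, with intervals apart in each. None of these differences was tested. Kif26b, a kinesin family gene, had a log2 ratio of members over reference of 0.44 in HKO and -0.32 in WT. Serpina1e, a protease inhibitor gene of the serpin family, had 0.16 in HKO and -0.10 in WT. It belongs to a family of near-identical copies, so its reads may be split among them. The pericentral list summed to 1.07 times its reference level in HKO members and to 0.916 times in WT members, where Glul had a log2 ratio of -0.50. The haemoglobin genes summed to 0.181 times the reference in HKO members and to 64.0 times in WT members. The WT nucleus with 655 haemoglobin UMIs held 4 rule UMIs, the smallest number that passes, and the other WT members held 10 haemoglobin UMIs together.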

How the results depend on the processing

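No paired analysis was possible because each group has 1 library, so replicate number 1 is the only number the groups share.

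The share of members in HKO and WT was 1.32% and 2.39% when members were chosen on thinned counts of the 15 rule genes. It was 1.68% and 3.12% with at least 6 UMIs from 4 genes and 9.02% and 14.4% with at least 3 UMIs from 3 genes. With no limit on the G2 and mitosis genes it was 10.8% and 19.5%. In WT it was 7.71% with 0 UMIs of the other-cell genes, 12.3% with at least 3000 UMIs and 10.4% under 0.5% mitochondrial UMIs. The WT share was the higher in each of these settings. The 30 genes higher in both libraries became 79 with thinned choice, 71 with at least 6 UMIs from 4 genes, 15 without depth weighting, 12 at a minimum of 20 CPM and 49 at 5 CPM, and of the 30 genes 29, 30, 15, 12 and 30 were kept. They became 15, all among the 30, with at least 3 UMIs from 3 genes, and 132, with all 30, without the limit on G2 and mitosis genes. Under thinned choice 1 gene was lower in both. HKO over WT in members gave 863 higher and 709 lower genes with thinned choice, which leaves fewer nuclei, and 200 higher genes with TMM as with median ratio factors.

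Among ratios of named genes and list medians at least 1 in size on the log2 scale, those that changed sign were of 3 haemoglobin genes. Smaller ratios were not followed for sign, and scaling factors turn ratios of HKO over WT that lie between 0 and 0.16. Sizes changed more often. Counted over genes, libraries and settings, 504 ratios of members over reference moved past their counting error and 3943 stayed within it. Of the 504, 141 moved with thinned choice and 120 with at least 6 UMIs from 4 genes. For HKO over WT 170 moved and 2239 did not, and 42 list medians moved past a set limit while 694 did not. In WT members over reference, Hba-a2 became -4.20 with thinned choice, -2.95 with at least 6 UMIs from 4 genes, -1.09 with 0 other-cell UMIs, -1.27 under 0.5% mitochondrial UMIs and -0.80 without barcodes holding at least 5 UMIs of another marker list, an alternative chosen after seeing the data. In the same order Hba-a1 became -4.17, -2.89, -1.09, -1.15 and -0.59. Hbb-bs became -1.91, -2.19 and -0.19 in the first 3. In HKO over reference, Hba-a1 became 0.86 and Hbb-bs 0.59 with at least 3000 UMIs, and 0.75 and 1.42 without the marked barcodes. In HKO over WT, Hba-a1 became 1.81 with at least 6 UMIs, 2.62 with 0 other-cell UMIs, 1.86 under 0.5% mitochondrial UMIs and 1.60 without the marked barcodes. Hba-a2 became 0.91 and 0.33 in the last 2, and Hbb-bs 0.64, 0.51 and 0.85 in the last 3. Without the marked barcodes 399 HKO and 777 WT members were left, and 32 genes were higher in both, the 30 among them.

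Depth limits the choice of members. At their median depth most rule genes give at most a few UMIs, so nuclei in S phase can fall in the reference, and genes under the minimum level in either library are not described. The cause of the other changes was not tested.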
